A study of Rattus norvegicus with 65 samples.

Results

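The striatal projection neuron genes described here are Ppp1r1b, Drd1, Drd2, Adora2a, Rgs9 and Pde10a. They were chosen by name, with earlier results of these data known, and 6 of the 38513 genes counted in rat hypothalamus belonged to them, each with 1 row. RNA was measured in 65 male Wistar rats, 1 library per animal. All groups except lean animals had become obese on 6 weeks of high-fat diet, starting at 9 to 10 weeks of age. They were 14 RYGB-treated animals (Roux-en-Y gastric bypass), 11 sham-treated animals, 7 body weight-matched (BWM) animals, whose food was restricted so that their weight followed that of RYGB-treated animals, 8 saline-treated animals, 5 animals given liraglutide (a GLP-1 receptor agonist, 0.4 mg/kg/day), 4 given PYY3-36 (0.1 mg/kg/day) and 10 given both. The remaining 6 were labelled lean, and the labels do not give their diet. After the intervention the obese groups other than the BWM animals chose freely between high-fat and low-fat food. The paper's abstract lists the BWM group as sham plus body weight-matched. By the end of the observation BWM animals were heavier than RYGB-treated animals. Hypothalami were dissected from frozen brains taken after 10 h without food, 4 weeks into the intervention. The samples came from 2 periods, named batches: A held 37 libraries, with all BWM and lean animals, and B held 28, with all animals given liraglutide or PYY3-36 alone. Both held RYGB-treated (11 in A and 3 in B), sham-treated (5 and 6) and saline-treated animals (3 and 5), and 5 animals each given the combination. Libraries held between 20040821 and 36539714 counts on genes.

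Most neurons of the striatum are inhibitory projection neurons. One class carries the dopamine D1 receptor and projects along the direct pathway, and the other carries the D2 receptor together with the adenosine receptor encoded by Adora2a and projects along the indirect pathway. D1 and adenosine receptors raise cyclic AMP through Golf and adenylyl cyclase 5, while D2 receptors lower it. Protein kinase A then phosphorylates DARPP-32, which in that state inhibits protein phosphatase 1. The phosphodiesterase PDE10A degrades cyclic AMP and cyclic GMP in both classes, and RGS9 ends the signal of inhibitory G proteins. These genes are not silent elsewhere: hypothalamic tanycytes are known for DARPP-32, and prolactin cells of the pituitary for the D2 receptor.

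Because the 6 genes varied together, the sequence upstream of their starts was examined for the half-site of the cyclic AMP response element (TGACG, or CGTCA on the other strand) and for the Sp1 box (GGGCGG, or CCGCCC). RefSeq windows of the build GRCr8 matched 4 of the 6 genes, with 5 windows. The 250 bases before the start are shown for 3 of them, chosen because a motif was found, with the motifs in capitals. Drd2 is at chr8:58605153-58605402 on the plus strand, Rgs9 at chr10:94770388-94770637 on the minus strand and the first Pde10a window at chr1:54765669-54765918 on the minus strand.
Drd2: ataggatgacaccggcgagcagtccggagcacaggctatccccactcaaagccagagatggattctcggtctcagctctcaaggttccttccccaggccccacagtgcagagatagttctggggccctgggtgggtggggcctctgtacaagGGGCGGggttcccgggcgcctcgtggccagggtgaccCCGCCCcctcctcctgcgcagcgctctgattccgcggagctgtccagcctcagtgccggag
Rgs9: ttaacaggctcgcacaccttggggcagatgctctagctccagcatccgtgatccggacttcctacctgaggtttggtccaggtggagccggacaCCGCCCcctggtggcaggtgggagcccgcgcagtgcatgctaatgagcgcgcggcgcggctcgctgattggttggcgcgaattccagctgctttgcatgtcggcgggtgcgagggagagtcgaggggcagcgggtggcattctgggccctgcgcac
Pde10a: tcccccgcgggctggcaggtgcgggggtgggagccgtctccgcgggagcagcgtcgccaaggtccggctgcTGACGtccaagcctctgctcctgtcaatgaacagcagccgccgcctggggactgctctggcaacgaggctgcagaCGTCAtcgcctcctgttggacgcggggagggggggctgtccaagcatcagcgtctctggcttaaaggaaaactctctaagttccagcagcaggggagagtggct
The Pde10a window held 2 cyclic AMP response element half-sites and no Sp1 box. The Drd2 window held 2 Sp1 boxes and the Rgs9 window 1, and neither held the half-site. Of 33469 RefSeq windows of this length, 18.2% held the half-site and 30.5% the Sp1 box, so both are common. The second Pde10a window held 1 Sp1 box, and the window of Drd1 held neither motif.

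Counts were scaled to CPM, the count of a gene relative to the library's total, with edgeR's TMM factors, and all levels below are in this unit. Ppp1r1b, which encodes DARPP-32 (chromosome 10, 86303727 to 86312770 of Rnor_6.0, plus strand), had a median of 151 CPM over the 65 libraries. Rgs9 (chromosome 10, 97509971 to 97582188, minus strand) had a median of 51.8 CPM and the D1 receptor gene Drd1 (chromosome 17, 11099736 to 11104352, plus strand) of 22.8 CPM. The medians of the D2 receptor gene Drd2 (chromosome 8, 53678777 to 53743643, plus strand), of Pde10a (chromosome 1, 52360296 to 52544448, minus strand) and of the adenosine receptor gene Adora2a (chromosome 20, 14265251 to 14282873, minus strand) were 19.9, 16.8 and 15.2 CPM. Per kb of exon the order was Ppp1r1b (52.0 CPM per kb), Rgs9 (21.4), Drd2 (7.23), Drd1 (5.19), Pde10a (4.95) and Adora2a (2.28). Every member was detected in every library, with at least 75 counts.

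All members varied widely between libraries. Adora2a ran from 3.61 CPM in liraglutide replicate 2 to 379 CPM in BWM replicate 1, a 105-fold range. Drd1 ran from 2.62 CPM in BWM replicate 7 to 411 CPM in BWM replicate 1 (157-fold). The ranges were 89.4-fold for Pde10a (3.31 to 296 CPM), 53.3-fold for Rgs9 (10.98 to 585 CPM), 34.2-fold for Ppp1r1b (57.2 to 1954 CPM) and 33.0-fold for Drd2 (4.98 to 164 CPM). BWM replicate 1 was the highest library for 5 of the members, and sham replicate 10 for Ppp1r1b, at 1954 against 1894 CPM in BWM replicate 1. In bulk tissue, more cells of a type and more RNA per cell cannot be told apart.

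**Figure D1:**
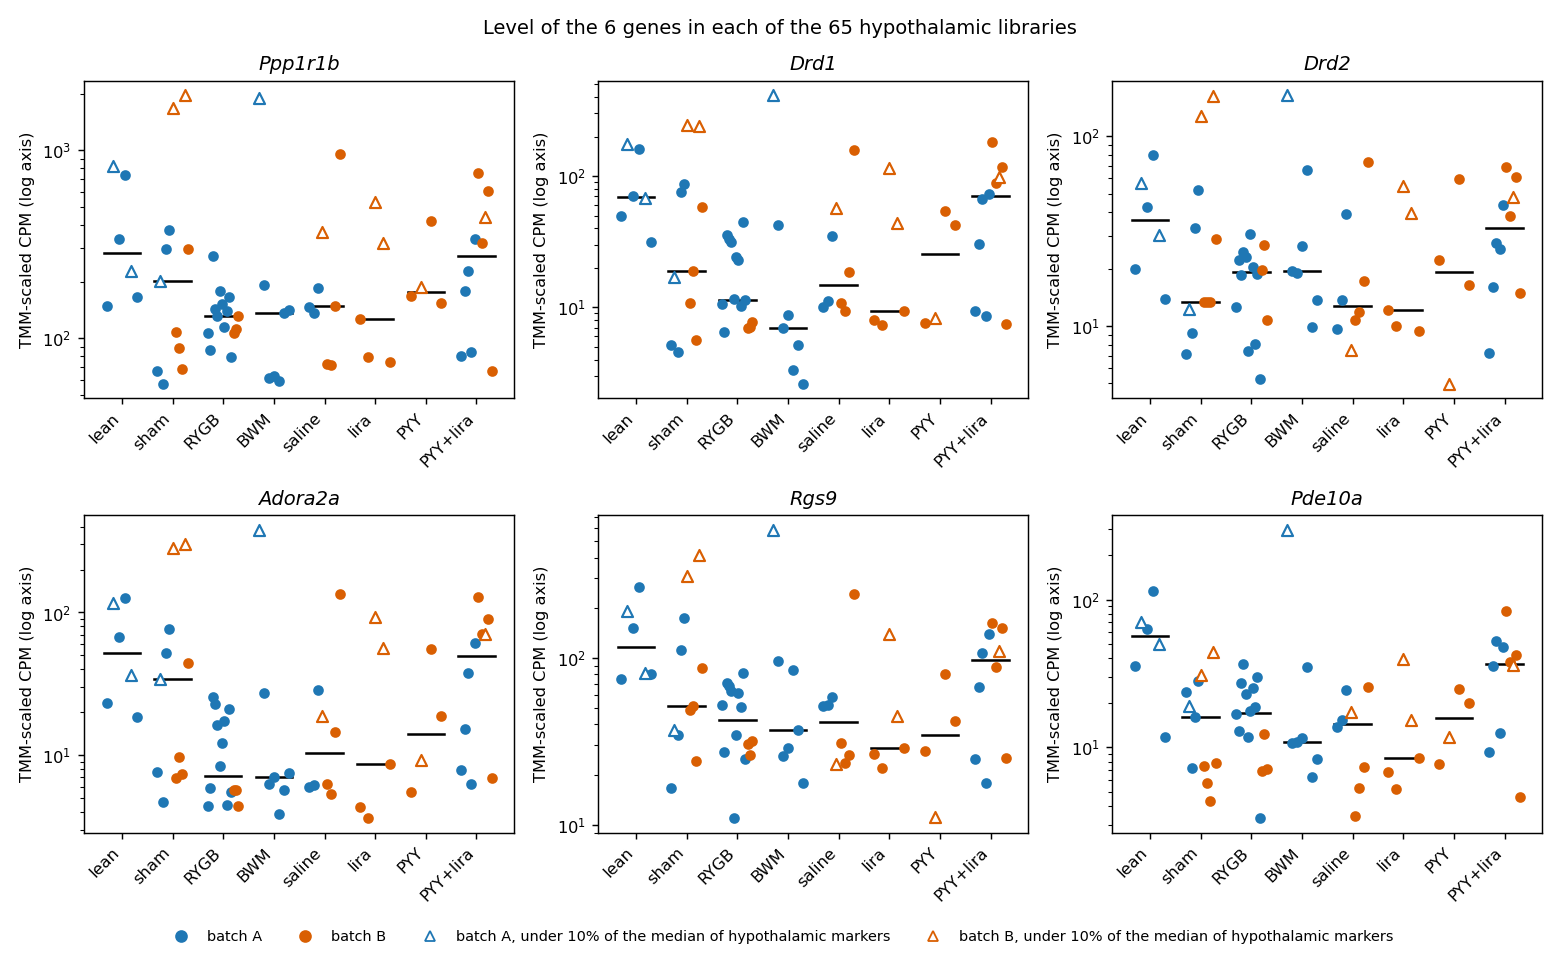
Level of each gene in every library (TMM-scaled CPM, log axis) by group, with batch A in blue and batch B in orange, black bars at the group medians, and open triangles for 11 libraries whose hypothalamic marker genes sum to under 10% of the median library. The groups overlap for every gene, and the 14 RYGB points stay within a narrow part of the range for Adora2a (4.36 to 25.7 CPM).

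Within groups and batches, the SD of log2 (CPM + 1) was 1.63 for Adora2a and 1.61 for Drd1, against a median of 0.264 over the 21871 genes tested. Both were above that of 99.9% of these genes. The SD was 1.26 for Ppp1r1b, 1.19 for Rgs9, 1.14 for Pde10a and 1.12 for Drd2, at percentiles 99.1 to 99.4. The biological coefficient of variation that edgeR estimated ran from 0.748 for Drd2 to 1.07 for Adora2a, with a median of 0.255 over all genes. Group and batch together accounted for between 15.6% (Ppp1r1b) and 27.3% (Pde10a) of the variance of the log2 levels, while this share was 29.9% for the median gene. The share was not adjusted for the 12 group-by-batch cells, so it is above 0 even where groups and batches do not differ.

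The same few libraries carried the high values of all members. The 7 libraries with the highest summed level (BWM replicate 1, sham replicates 10 and 6, saline replicate 8, lean replicates 4 and 2 and PYY3-36 + liraglutide replicate 6) took 34 of the 36 places among the 6 highest libraries of each gene. The other places, both for Pde10a, went to lean replicate 3 (63.3 CPM) and PYY3-36 + liraglutide replicate 3 (52.7 CPM). All 6 genes lay above their batch median in 18 libraries, none did in another 18, and 29 libraries were mixed. The order was shared in part. Sham replicates 6 and 10 had 285 and 303 CPM of Adora2a, about the level of BWM replicate 1, but 30.8 and 43.9 CPM of Pde10a against 296 CPM there. The 3 libraries thus agreed in 1 gene and not in the other.

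**Figure D2:**
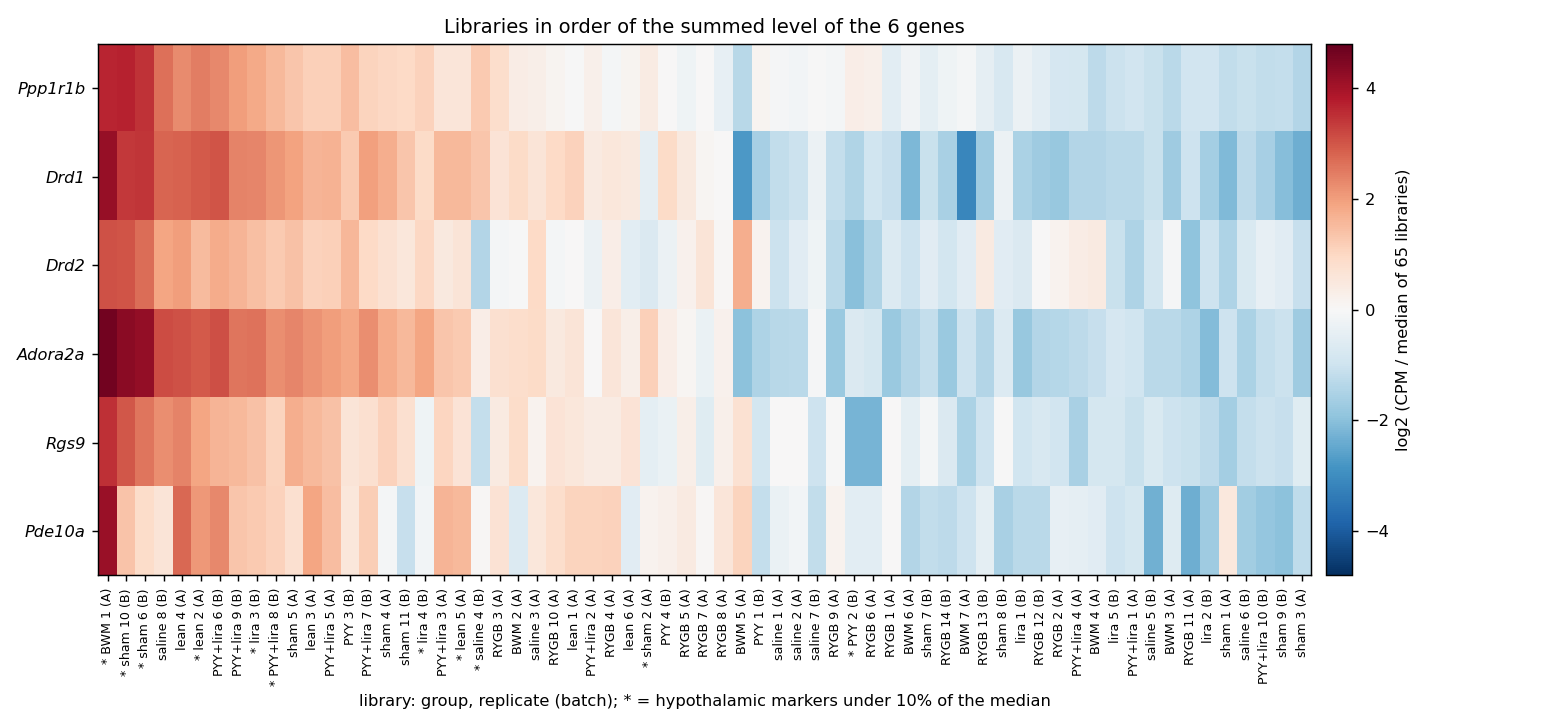
Each column is 1 library, ordered from left to right by the summed level of the 6 genes, and each row 1 gene, coloured by log2 of its CPM over its median of the 65 libraries. Columns at the left are red (high) and most at the right blue (low), with exceptions such as BWM replicate 5, where Drd2 (66.4 CPM), Rgs9 (84.9 CPM) and Pde10a (34.9 CPM) are high and the others low.

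The labelled tissue was checked with 15 genes of hypothalamic neurons, among them Oxt, Avp, Hcrt, Pmch, Pomc, Trh, Otp and Sim1. Their summed CPM, on library totals, was 1903 in the median library. In 11 libraries it was between 16.4 and 125 CPM, under 10% of this median, and in the other 54 between 204 and 7644 CPM. The 11 were BWM replicate 1, lean replicates 2 and 5, liraglutide replicates 3 and 4, PYY3-36 + liraglutide replicate 8, PYY3-36 replicate 2, saline replicate 4 and sham replicates 2, 6 and 10, and no RYGB library was among them. The peptide genes Oxt (at most 28.4 CPM) and Pmch (at most 30.1 CPM) are part of the sum that picked these 11, so their low values are no separate check. Their medians in the other 54 were 497 and 632 CPM, with lowest values of 28.3 and 3.16 CPM. Crh, also in the sum, differed little, with medians of 4.51 CPM in the 11 and 5.71 CPM in the 54. The limit on the low side was liraglutide replicate 4 at 125 CPM and on the high side saline replicate 3 at 204 CPM.

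The libraries low in hypothalamic markers held many, but not all, of the high values. Adora2a was between 9.30 and 379 CPM in these 11 (median 70.5 CPM) and between 3.61 and 134 CPM in the other 54 (median 8.50 CPM). Ppp1r1b had medians of 442 and 141 CPM, Drd1 of 98.6 and 11.5 CPM, and Rgs9 of 110 and 51.1 CPM. The ranges overlapped for every member. Of the 7 highest libraries, 4 were low in hypothalamic markers, whereas saline replicate 8, lean replicate 4 and PYY3-36 + liraglutide replicate 6 had marker sums of 1109, 1152 and 1607 CPM. The part of the cells that carry these markers in the member levels was not tested.

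**Figure D3:**
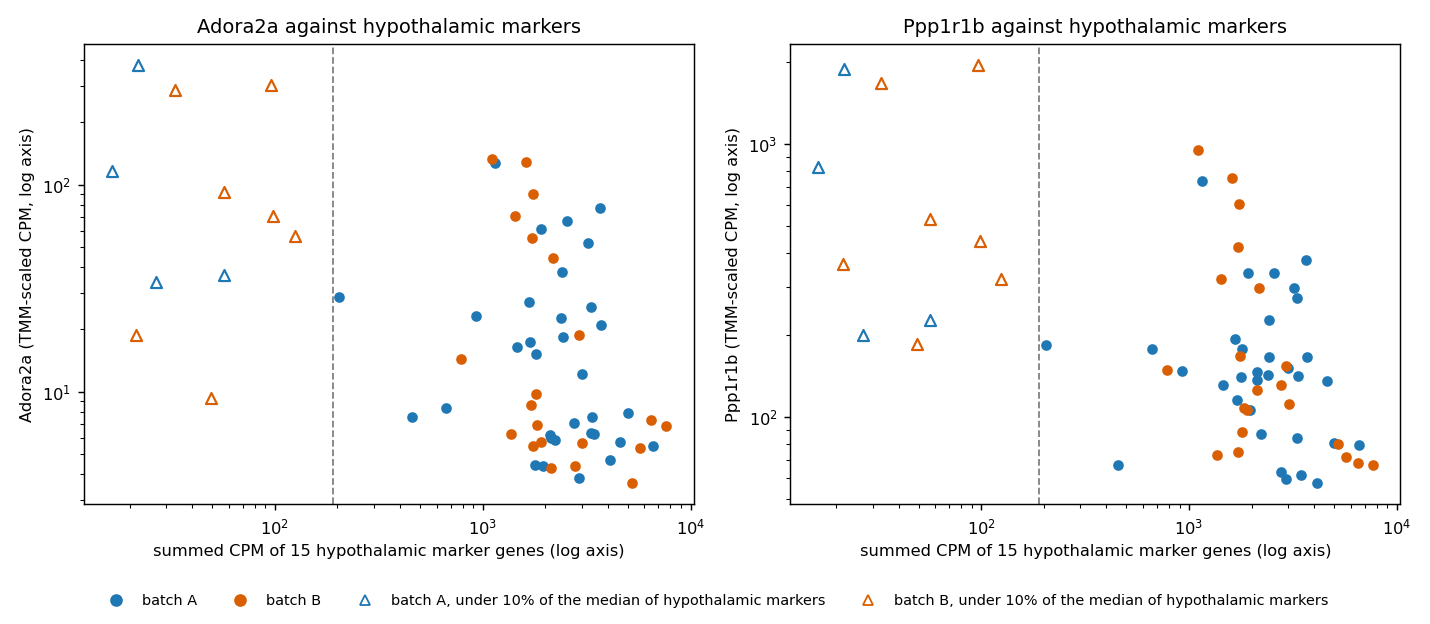
Level of Adora2a and of Ppp1r1b (vertical axes, TMM-scaled CPM, log axes) against the summed CPM of 15 hypothalamic marker genes (horizontal log axis) in 65 libraries, with a dashed line at 10% of the median sum. The 11 libraries left of the line include the 3 highest of each gene, and to the right of it Adora2a still runs from 3.61 to 134 CPM.

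Other regions moved with some of these libraries. A list of 10 cortical neuron genes, including Slc17a7 and Tbr1, summed to 2071 CPM in sham replicate 2, 1472 in saline replicate 4, 1358 in RYGB replicate 6, 1296 in lean replicate 2 and 916 in PYY3-36 replicate 2, with a median of 137 CPM in the 54 libraries that kept their hypothalamic markers. Drd2 and Rgs9 were high in lean replicate 2 only. Drd2 was 12.3, 7.51, 7.39 and 4.98 CPM, and Rgs9 37.2, 23.2, 10.98 and 11.1 CPM, in sham replicate 2, saline replicate 4, RYGB replicate 6 and PYY3-36 replicate 2. The lowest Drd2 and the lowest pair of Rgs9 values of all 65 libraries were among these. In the same order Drd1 was 17.0, 57.6, 11.6 and 8.35 CPM there, above its median of all libraries in saline replicate 4 only. Ppp1r1b was above its median of 151 CPM in each of these libraries, at 201, 365, 178 and 186 CPM. Adora2a (33.9, 18.8, 8.39 and 9.30 CPM) and Pde10a (18.9, 17.4, 11.8 and 11.7 CPM) were above their medians in sham replicate 2 and saline replicate 4 only.

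BWM replicate 5 stood apart in another way. Its 8 pituitary genes summed to 76831 CPM, mostly from the growth hormone gene Gh1 (62724 CPM) and the prolactin gene Prl (12887 CPM), while the highest sum in the other 64 libraries was 1125 CPM. Drd2, the receptor through which dopamine acts on prolactin cells, was 66.4 CPM there, the seventh highest of 65, and Rgs9 was 84.9 CPM. Drd1 (3.34 CPM) and Adora2a (3.84 CPM) held place 64 of 65, so this library was high for 3 members and near the bottom for the others. Which cells gave the Drd2 counts was not tested.

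Across libraries the members were correlated in both batches. Over the 15 pairs of genes, Pearson's r of the log2 levels was between 0.66 and 0.94 in the 37 libraries of batch A (median 0.80) and between 0.77 and 0.97 in the 28 of batch B (median 0.89). Spearman's rho was 0.53 to 0.90 and 0.69 to 0.91. All 30 relations passed a two-sided permutation test with 100000 resamples, with Benjamini-Hochberg adjusted p of at most 2e-05 for r and 0.00086 for rho (the smallest p these resamples can give is 1e-05). The members were chosen as genes of 1 neuron type with earlier results of these data known, so these p-values add no independent support. The share of other gene pairs that would pass was not computed. Leaving out the 2 libraries farthest from the median, mostly BWM replicate 1 with a lean library or sham replicates 6 and 10, gave r between 0.49 and 0.92 in batch A and between 0.75 and 0.97 in batch B. Drd1 and Adora2a, which mark different projection neurons, were the closest pair (r = 0.94 and 0.97), and Ppp1r1b and Drd2 the loosest in batch A (r = 0.66, rho = 0.53). The libraries of a batch come from several groups, which these values do not separate.

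**Figure D4:**
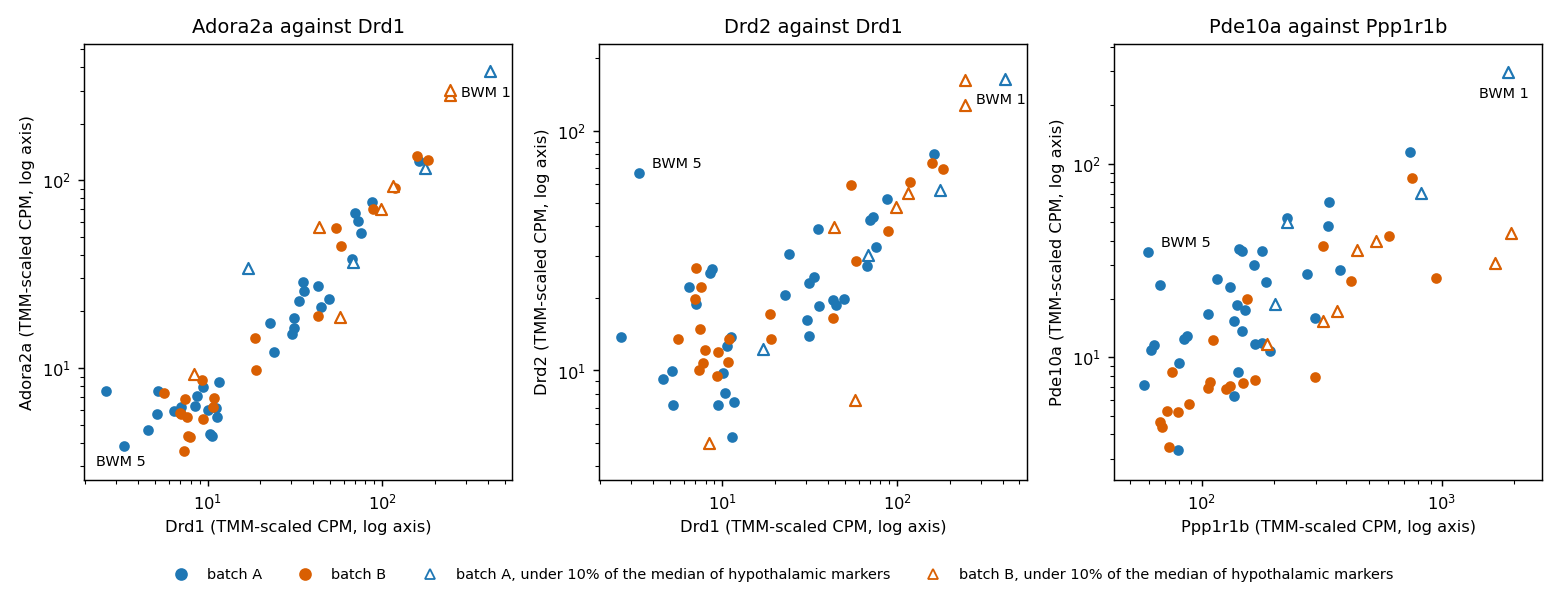
Level of 1 gene against another in the 65 libraries (TMM-scaled CPM, log axes on both sides) for Adora2a against Drd1, Drd2 against Drd1, and Pde10a against Ppp1r1b. Adora2a rises with Drd1 (r = 0.94 and 0.97 in the 2 batches), BWM replicate 5 has much Drd2 (66.4 CPM) for its Drd1 (3.34 CPM), and Pde10a is 30.8 and 43.9 CPM in the 2 sham libraries with the most Ppp1r1b.

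For each member, the genes with the most similar pattern were looked up among all genes tested, by the lower of the Spearman correlations in both batches (37 and 28 libraries). For Adora2a they included Gng7 (0.93), Htr6 (0.92), Drd1 (0.90) and Ankrd63 (0.90). For Drd1 they included Htr6 (0.94), Gng7 (0.91), Ppp1r2 (0.91) and Adora2a (0.90). Gng7 encodes the gamma subunit of the Golf protein of striatal neurons, and Htr6 a serotonin receptor known for its striatal level. Ppp1r1b was closest to Rarb, Chrm4, Smad3, Lrrk2 and Drd1 (0.85 to 0.88), Rgs9 to Gpr6, Rarb, Gpr149, Penk and Pde7b (0.83 to 0.92), and Pde10a to Adcy5, Lingo3, Akap5, Arel1 and Bcr (0.85 to 0.87). Drd2 had the least similar partners, Sv2c, Mme, Htr1d, Slc10a4 and Zar1 (0.74 to 0.79). No other member was among the 5 closest genes of Drd2, Rgs9 or Pde10a.

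Of 31 other genes of striatal projection neurons, 24 had a Spearman correlation with Drd1 over 0.5 in both batches. Arpp21, a striatal phosphoprotein, ran from 30.3 to 1593 CPM and the enkephalin gene Penk from 52.5 to 1769 CPM, both with their highest value in sham replicate 10. BWM replicate 1 was the highest library for 18 of the 31, among them Pde1b (1259 CPM) and Scn4b (513 CPM). The dynorphin gene Pdyn (0.32 in batch A and 0.42 in batch B) and the transcription factor genes Isl1 (0.50 and 0.00) and Ebf1 (0.03 and 0.04) were less correlated with Drd1.

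By group, lean animals had the highest median for 5 of the members and PYY3-36 + liraglutide-treated animals for Drd1. Adora2a had a median of 51.9 CPM in lean, 49.4 in PYY3-36 + liraglutide-treated, 33.9 in sham-treated, 14.1 in PYY3-36-treated, 10.3 in saline-treated, 8.61 in liraglutide-treated, 7.14 in RYGB-treated and 7.07 CPM in BWM animals. The ranges of neighbours in this order overlapped, as did those of all groups, since the lowest lean library (18.5 CPM) was below the highest library of each other group. The group medians pool the batches, although lean and BWM animals were all in batch A. Animals given liraglutide or PYY3-36 alone were all in batch B. Without the libraries low in hypothalamic markers, Adora2a medians were 45.2 CPM in lean, 37.9 in PYY3-36 + liraglutide-treated and 18.8 in PYY3-36-treated animals. They were 8.65 in sham-treated, 7.14 in RYGB-treated, 6.65 in BWM, 6.23 in saline-treated and 4.30 CPM in liraglutide-treated animals. For Adora2a, 11 of the 14 RYGB libraries lay below every lean library. The 14 include 3 libraries of batch B, while all lean libraries were in batch A. This count was 13 for Rgs9, 11 for Drd1, 10 for Ppp1r1b, 5 for Drd2 and 3 for Pde10a. The share of all genes with such counts was not computed. The order of means was different. BWM animals, with the lowest median of Adora2a, had a mean of 62.4 CPM ± 140 (SD, n = 7), and RYGB-treated animals a mean of 11.4 CPM ± 7.71 (SD, n = 14).

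RYGB-treated animals had the lowest coefficient of variation of the 8 groups for 4 members (Ppp1r1b, Drd2, Adora2a and Rgs9), and not for Drd1 and Pde10a. Their Adora2a levels were 4.36 to 25.7 CPM, with a value of 67.6% against 146% in sham-treated and 224% in BWM animals. For Ppp1r1b this was 35.3% in RYGB-treated (79.3, 131 and 274 CPM as lowest, median and highest) against 143% in sham-treated animals (57.2, 201 and 1954 CPM). In the 3 RYGB libraries of batch B, Drd1 was 6.94, 7.05 and 7.78 CPM and Adora2a 5.72, 5.66 and 4.36 CPM. These values were close together and near the bottom of the whole range. Without the libraries low in hypothalamic markers the values for Adora2a were 90.9% in BWM and 105.8% in sham-treated animals, and liraglutide-treated animals, with 3 libraries left, had lower values than RYGB-treated animals for all 6 members. Differences in spread between groups were not tested.

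Whether RYGB changed these genes relative to sham surgery was compared first. No member passed the test, edgeR's quasi-likelihood test with terms for group and batch over all 65 libraries and a Benjamini-Hochberg adjusted p under 0.05 over 21871 genes. The share of all genes called in this comparison was 13%. Below an unadjusted p of 0.05 there were 3 members and 6570 of the 21871 genes tested. DESeq2 called 1 member and 15.4% of the genes it tested. Adora2a came closest. In sham-treated animals it was 7.55, 33.9, 4.69, 52.2 and 76.9 CPM in batch A and 285, 6.90, 9.75, 7.34, 303 and 44.4 CPM in batch B, and in RYGB-treated animals of batch A its lowest, median and highest levels were 4.37, 12.2 and 25.7 CPM. Of the 11 sham libraries, 6 lay above every RYGB library, and the others lay within the RYGB range. The log2 fold change was -2.05 (SE 0.76, adjusted p = 0.060), or 4.13-fold lower in RYGB-treated animals. DESeq2 gave -2.03 with an adjusted p of 0.021.

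The other members had smaller differences between RYGB-treated and sham-treated animals. The log2 fold change was -1.33 (SE 0.74, adjusted p = 0.22 in edgeR's test) for Drd1, -1.17 (SE 0.53, 0.12) for Rgs9, -1.14 (SE 0.56, 0.16) for Ppp1r1b and -0.89 (SE 0.49, 0.22) for Drd2. Pde10a had an estimate of -0.13 (SE 0.51, adjusted p = 0.89), with medians of 17.2 CPM in RYGB-treated and 16.0 CPM in sham-treated animals. The median of the 6 was -1.15, beside -0.02 over all genes tested.

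Batch and single libraries moved these values. Within batch A the log2 fold changes ran from -1.42 (Adora2a) to 0.11 (Pde10a), and within batch B, with 3 RYGB libraries, from -4.37 (Adora2a, adjusted p = 0.081 in edgeR's test) to -0.91 (Pde10a). No member was called within batch A, where 8.57% of all genes were, or within batch B, where 2.72% were. In batch B all 6 sham libraries had more Adora2a than all 3 RYGB libraries, while the ranges of the other members overlapped. The share of all genes separated in this way was not counted. The difference between the batches was itself not significant for any member (adjusted p of at least 0.52 in edgeR's test, with 0% of all genes called). Without a term for batch, 5 members were called, all but Pde10a (adjusted p 0.0047 to 0.037, with 25.5% of all genes called). Without the 11 libraries low in hypothalamic markers none was, and 5.90% of all genes were, with Adora2a at -1.14 (SE 0.60, adjusted p = 0.22) and Ppp1r1b at -0.22.

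**Figure D5:**
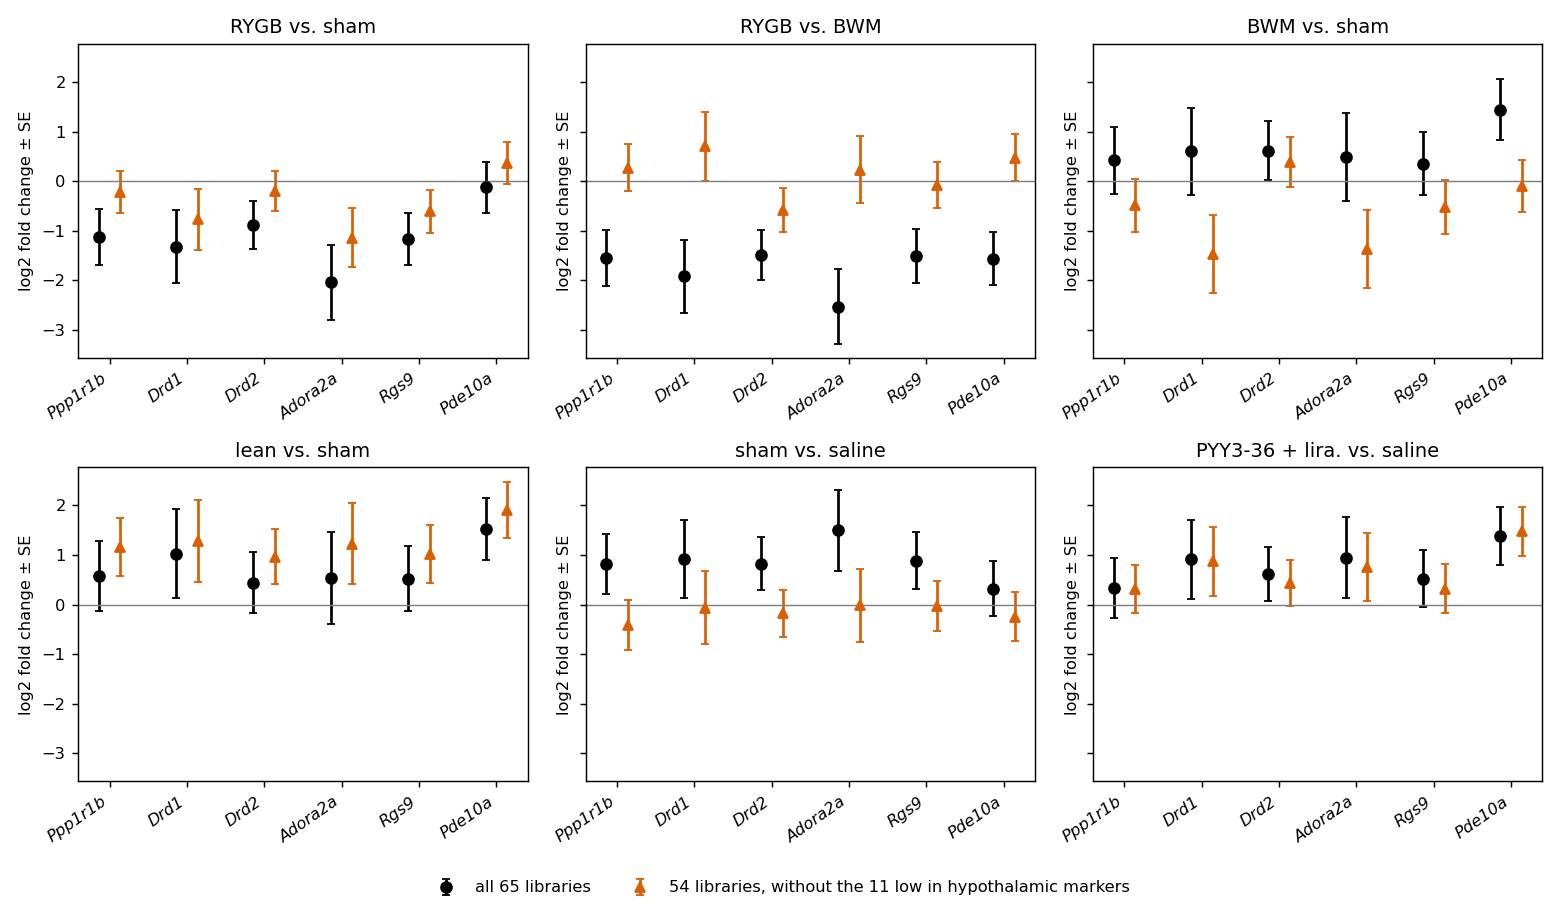
Log2 fold change with its SE for the 6 genes in 6 comparisons, from all 65 libraries (black circles) and from the 54 left without the 11 libraries low in hypothalamic markers (orange triangles). None of these values passed the test, and in RYGB vs. BWM, BWM vs. sham and sham vs. saline most of them change sign when those libraries are left out.

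RYGB-treated animals were compared with BWM animals to set RYGB against weight loss by food restriction. All 6 members had a lower estimate in RYGB-treated animals, with log2 fold changes from -2.53 (Adora2a, SE 0.75) to -1.50 (Drd2, SE 0.51). None was called (adjusted p 0.16 to 0.29 in edgeR's test, with 0.343% of all genes called), and DESeq2 called none. All 6 had an unadjusted p under 0.05, as did 2751 of the 21871 genes tested. The BWM values of Adora2a were 379, 27.2, 6.23, 7.07, 3.84, 5.72 and 7.53 CPM. A single library was thus far above the others, and 5 of the 7 lay at or below 7.53 CPM, near the RYGB median of 7.14 CPM. Without BWM replicate 1, Adora2a had a log2 fold change of 0.17, Drd1 of 0.65, Ppp1r1b of 0.19 and Pde10a of 0.41. Without all libraries low in hypothalamic markers these were 0.23, 0.70, 0.27 and 0.48 (0 members and 0.550% of all genes called), and Drd2 (-0.58) and Rgs9 (-0.08) stayed negative.

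Against sham-treated animals, BWM animals had estimates above 0 for all 6 members, from 0.35 (Rgs9, SE 0.64) to 1.44 (Pde10a, SE 0.61). None was called by edgeR (adjusted p 0.31 to 0.87, with 0.320% of all genes called) or by DESeq2. An unadjusted p under 0.05 was found for 1 member and for 2695 of the 21871 genes tested. Within batch A, which held all BWM animals, 0 members and 5.31% of all genes were called. The Pde10a levels of BWM animals were 296, 10.7, 10.9, 11.5, 34.9, 6.31 and 8.35 CPM. Those of sham-treated animals in the same batch were 23.6, 18.9, 7.24, 16.0 and 28.3 CPM, so that 5 BWM libraries lay within or below the sham range. Without BWM replicate 1, all 6 estimates were below 0, from -2.21 for Adora2a to -0.21 for Drd2. Without all libraries low in hypothalamic markers 5 were below 0, and 0 members and 0.528% of all genes were called. Against saline-treated animals 3 members and 1415 of the 21871 genes tested had an unadjusted p under 0.05. The BWM estimates there were 1.23 to 1.98, with no member called (0.0412% of all genes called). Without BWM replicate 1, 5 of these were below 0, from -1.06 for Drd1 to -0.13 for Rgs9, and Drd2 was at 0.62. The 7 pituitary genes tested also differed in the comparisons with BWM animals: 5 rose in BWM compared with sham-treated animals (median log2 fold change 8.41) and 5 fell in RYGB-treated compared with BWM animals (median -7.46). BWM replicate 5, with high Drd2 and Rgs9, was far above the other BWM libraries for these genes, and their part in the member values was not tested.

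Lean animals had higher estimates than sham-treated animals for all 6 members, from 0.44 (Drd2, SE 0.62) to 1.53 (Pde10a, SE 0.63). None was called (adjusted p 0.33 to 0.84 in edgeR's test, with 0% of all genes called, 2674 genes at an unadjusted p under 0.05 and 5 called by DESeq2). Of the members 1 had an unadjusted p under 0.05, and DESeq2 called none. Pde10a was 35.4, 70.9, 63.3, 115, 49.97 and 11.7 CPM in lean animals. Of these, 5 lay above the 5 sham libraries of batch A and 4 above all 11. The estimates stayed above 0 without the libraries low in hypothalamic markers, at 1.92 (SE 0.56, adjusted p = 0.29) for Pde10a and 1.28 (SE 0.83) for Drd1, with 0 members and 0% of all genes called. Without a batch term Pde10a was called, at 1.71 (adjusted p = 0.046, with 10.7% of all genes called), while the same fit put Ppp1r1b, Drd2 and Adora2a below 0, at -0.21, -0.081 and -0.22.

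No member passed the test under any of the hormone treatments. In PYY3-36 + liraglutide-treated compared with saline-treated animals the log2 fold changes were 0.34 (Ppp1r1b, SE 0.60) to 1.38 (Pde10a, SE 0.58). There, 0 members and 0.00457% of all genes were called (0 members and 0.00455% without the libraries low in hypothalamic markers). Below an unadjusted p of 0.05 were 1 member and 554 of the 21871 genes tested. Pde10a was 9.32, 35.5, 52.7, 12.4 and 47.4 CPM in batch A and 84.2, 37.8, 35.97, 42.2 and 4.65 CPM in batch B after the combination, and 13.6, 15.3 and 24.4 CPM and 17.4, 3.42, 5.29, 7.41 and 25.6 CPM in saline-treated animals. In batch A 3 of 5 treated libraries lay above all saline libraries and 2 below all of them, and in batch B 4 lay above and 1 within the saline range. Liraglutide alone gave -0.51 (Ppp1r1b) to 0.25 (Pde10a) and PYY3-36 alone -0.81 (Rgs9) to 0.34 (Pde10a). Neither had a member called, by edgeR or DESeq2, or under an unadjusted p of 0.05, and in both 0% of all genes were called by edgeR (456 and 1649 genes at an unadjusted p under 0.05, and 14 and 12 called by DESeq2). Single libraries set the signs of these estimates. For Adora2a under liraglutide they ran from -0.84 without liraglutide replicate 3 to 1.11 without saline replicate 8, and under PYY3-36 from -1.56 without PYY3-36 replicate 3 to 0.54 without saline replicate 8. Without saline replicate 8 all 6 members were above 0 under either hormone.

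The control groups were also set against each other. Sham-treated compared with saline-treated animals had estimates of 0.32 (Pde10a) to 1.497 (Adora2a, SE 0.82), with no member called by edgeR or DESeq2 (0.0137% of all genes called) and none under an unadjusted p of 0.05 (2812 of the 21871 genes tested). Without the libraries low in hypothalamic markers these were between -0.41 (Ppp1r1b) and -0.018 (Adora2a), with 0 members and 0.00910% of all genes called. RYGB-treated compared with saline-treated animals had estimates of -0.55 (Adora2a) to 0.20 (Pde10a), with no member called (0.00457% of all genes called), and all 6 were above 0 without saline replicate 8. The comparisons with saline-treated animals share these animals, as those with sham-treated animals share theirs.

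Batch B was higher than batch A for 5 of the members and lower for Pde10a. The batch term was 1.07 for Ppp1r1b (SE 0.45, adjusted p = 0.052) and -0.33 for Pde10a (SE 0.41), with no member called by edgeR while 40.7% of all genes were. DESeq2 called Ppp1r1b (1.05, adjusted p = 0.024) and 37.1% of the genes it tested. Without the libraries low in hypothalamic markers the term was 0.34 for Ppp1r1b and -0.77 for Pde10a. The batches were separate periods of the experiment, and the libraries also had different fragment sizes.

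The partners of the members were described from lists that were chosen with results of these data known. Of the 31 other striatal neuron genes, 3 fell in RYGB-treated compared with sham-treated animals and 28 did not pass the test, no larger a share than the 13% called among all genes, with a median log2 fold change of -0.72 beside -0.02 over all genes. They were Lrrc10b (-1.76, SE 0.56, adjusted p = 0.031 in edgeR's test), the actinin gene Actn2 (-0.996, SE 0.34, 0.045) and the transcription factor gene Foxp1 (-0.81, SE 0.28, 0.047). Without the 11 libraries low in hypothalamic markers none of these was called (-0.25, -0.28 and -0.27). Gng7 was at -1.47 (SE 0.63, adjusted p = 0.10). In the other 9 comparisons between groups 0 of the 31 genes passed edgeR's test, with up to 19 (RYGB-treated against BWM animals) at an unadjusted p under 0.05. In that comparison 2751 of the 21871 genes tested were below it.

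Of 26 genes that act downstream of or beside the members, 1 rose and 2 fell in RYGB-treated compared with sham-treated animals, beside 13% called among all genes, and the median was 0.01. The regulatory subunit gene of protein kinase A, Prkar2a, rose by 0.42 (SE 0.10, adjusted p = 0.0058 in edgeR's test), whereas Ppp1cc, a catalytic subunit of protein phosphatase 1, was at -0.37 (SE 0.12, 0.038) and Ppp2r5d, a subunit of protein phosphatase 2A, at -0.35 (SE 0.10, 0.020). Gnb5 and Rgs7bp, which encode the binding partners of RGS9, were at -0.23 and -0.46 and did not pass the test. Among the other dopamine and adenosine receptors, of which 5 of 6 could be tested, Drd5 rose by 0.94 (SE 0.33, adjusted p = 0.049), while Adora1, Adora2b, Adora3 and Drd3 were between -0.16 and 0.58 without passing it. Without the libraries low in hypothalamic markers only Prkar2a of these 4 stayed called (0.34, adjusted p = 0.049).

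Marker lists of other cells gave the following beside the comparison of RYGB-treated and sham-treated animals. Hypothalamic markers summed to 726 to 7087 TMM-scaled CPM in RYGB-treated and to 30.3 to 7005 in sham-treated animals, with 0 of 15 called by edgeR, 2 at an unadjusted p under 0.05 and a median log2 fold change of 0.33. Cortical markers summed to 62.0 to 1358 and 84.4 to 2071 CPM, with 0 of 10 called, 0 at an unadjusted p under 0.05 and a median of -0.15. The median was -0.45 for 6 genes of striatal interneurons, with 0 called and 0 at an unadjusted p under 0.05. Of 6 genes of dopamine-producing neurons, 3 rose, with log2 fold changes of 2.12 for Th, 7.26 for Slc6a3 and 3.41 for Pitx3, and their sum was 58.0 to 709 CPM in RYGB-treated and 33.6 to 118 CPM in sham-treated animals. Of 8 choroid plexus genes Kl rose (2.47), with a median of 1.19 and sums of 11.9 to 3616 CPM in RYGB-treated and 9.38 to 686 CPM in sham-treated animals. Of 8 tanycyte genes 0 were called and 4 had an unadjusted p under 0.05 (median 0.56, sums 67.2 to 302 and 57.1 to 574 CPM), and of 8 meningeal genes 0 were called and 1 had an unadjusted p under 0.05, with all 8 estimates above 0 (median 1.164). Within batch A all 8 meningeal genes rose (median 3.43), beside 8.57% of all genes called. Of 11 genes of thalamus and habenula Chrnb3 rose (4.89) and Tnnt1 fell (-1.09). No gene of the lists for neurons (median -0.17), astrocytes (0.22), myelin (-0.31) and pituitary (0.05) was called. The part of these cells in the member values was not tested.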

How the data were processed

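RNA of the hypothalamus of 65 rats was sequenced after poly-A capture with a stranded kit. The authors trimmed reads with cutadapt, mapped them with STAR 2.7.2b to Rnor_6.0 and counted them by strand with featureCounts 1.6.4 on RefSeq exons. Reads with several places or features were shared out as fractions, so the deposited values are estimated counts per gene, not normalized. Of the nonzero values 30.3% were not whole (tolerance 1e-06), and for the members at most 5 of 65 libraries were. Totals were 20040821 to 36539714 per library, with medians of 29571483 in batch A and 23385849 in batch B.

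Values were rounded, filtered with filterByExpr (minimum count 10, total 15) and fitted in R 4.3.3 with edgeR 4.0.16 (TMM, robust quasi-likelihood test, terms for group and batch, all 65 libraries). A second model with 12 group-by-batch cells gave values within batches. DESeq2 1.42.0 was an alternative. Adjusted p-values are from these models, by Benjamini-Hochberg over all genes tested. The edgeR and permutation steps were tested on simulated data. Levels, spread and correlations were computed in Python 3.11.15, on log2 (TMM-scaled CPM + 1) where logged. Groups and batches came from the sample titles.

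The members and the gene lists were chosen with earlier results of these data known, and the setting without libraries low in hypothalamic markers after seeing the data. Genes named were the members, the 5 genes closest to each, at most 4 genes of a list past the threshold, and defining markers. Some genes that this rule names are not reported here. The further genes given with values in the paragraphs on other striatal genes, partners and receptors were chosen after their values were seen. Liraglutide and saline libraries with the same replicate number deviated alike from their group-by-batch means in 5 of 5 cases (r 0.32 to 0.61). The labels give no pairing of animals, and saline replicates 1 to 3 were in batch A while all liraglutide libraries were in batch B. The replicate block changed no call in that comparison, with 0 genes called in both fits. In no other comparison were all such correlations over 0.1.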

Additional observations from a re-analysis of the deposited data

Results flagged for a closer look

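Within each group and batch of 4 to 10 libraries, the highest and the lowest library were set against the others by Dixon's criterion on CPM. It singled out 11 of 54 sets (20.4%), while chance gives about 1 in 20 for values without skew, and the sets are not independent because the members vary together. On log2 (CPM + 1), a scale added after seeing the data, there were 6 such cases: BWM replicate 1 for Ppp1r1b, Adora2a and Pde10a, saline replicate 8 for Rgs9, and PYY3-36 + liraglutide replicate 10, as the lowest library, for Drd1 and Adora2a. On CPM, BWM replicate 1 was singled out for all 6 genes: Ppp1r1b at 1894 CPM (next BWM library 193), Drd1 at 411 (42.6), Drd2 at 164 (66.4), Adora2a at 379 (27.2), Rgs9 at 585 (96.2) and Pde10a at 296 CPM (34.9). This library was also low in hypothalamic markers (21.8 CPM in sum). Saline replicate 8 stood apart from the saline libraries of batch B for Drd2 (73.6 against 17.3 CPM in the next), Adora2a (134 against 18.8 CPM) and Rgs9 (243 against 31.2 CPM), with hypothalamic markers at 1109 CPM. PYY3-36 replicate 3 stood apart for Ppp1r1b (420 against 186 CPM) and liraglutide replicate 3 for Rgs9 (139 against 44.9 CPM). No difference of an effect between the batches passed the test for a member.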

How the results depend on the processing

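No member was called in any comparison with size factors of DESeq2's kind in edgeR or without the filter on low counts. For RYGB vs. sham, 1 member was called by DESeq2 (15.4% of all genes called), 1 with only the 2 groups compared (12.9%) and 5 without a batch term (25.5%). Leaving out 1 library gave 0 to 1, the 1 being Adora2a without sham replicate 1, 3 or 7 (adjusted p 0.0376 to 0.0486 in edgeR's test). For lean vs. sham 1 was called without a batch term (10.7% of all genes called). For batch B vs. A, DESeq2 called 1 (37.1% of all genes called). Leaving out 1 library called Ppp1r1b in 24 of 65 fits and no other member, with 8299 to 9596 genes called over the 65 fits. Genes called in RYGB vs. sham ranged from 605 within batch B to 5587 without a batch term, beside 2853, and from 1470 (without sham replicate 5) to 4938 (without RYGB replicate 11). The number called in BWM vs. sham was 2183 without a batch term, beside 70. It was 1179 within batch A, 513 with only these groups and 231 by DESeq2. Lean vs. sham gave 2339 without a batch term, beside 0. The causes of these changes were not tested.

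These log2 fold changes changed sign. In RYGB vs. sham, Pde10a was 0.11 within batch A, 0.012 without a batch term and 0.37 without the libraries low in hypothalamic markers. In BWM vs. sham, Ppp1r1b, Drd1 and Adora2a were -0.37, -0.022 and -0.27 without a batch term and -0.38, -0.026 and -0.28 with only these groups. Without the libraries low in hypothalamic markers Ppp1r1b, Drd1, Adora2a, Rgs9 and Pde10a were -0.49, -1.47, -1.37, -0.53 and -0.10. In RYGB vs. BWM that setting gave 0.27, 0.70, 0.23 and 0.48 for Ppp1r1b, Drd1, Adora2a and Pde10a. In lean vs. sham, Ppp1r1b, Drd2 and Adora2a were -0.21, -0.081 and -0.22 without a batch term and -0.23, -0.10 and -0.24 with only these groups. In sham vs. saline, Ppp1r1b, Drd1, Drd2, Adora2a, Rgs9 and Pde10a were -0.41, -0.062, -0.18, -0.018, -0.035 and -0.25 without the libraries low in hypothalamic markers, and Rgs9 was -0.10 in batch B vs. A.

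Leaving out 1 library gave -0.25 to 0.10 for Pde10a in RYGB vs. sham (above 0 without sham replicate 10). In BWM vs. sham the ranges were -1.32 to 0.66 for Ppp1r1b, -1.97 to 0.81 for Drd1, -0.21 to 0.85 for Drd2, -2.21 to 0.69 for Adora2a, -1.02 to 0.56 for Rgs9 and -0.54 to 1.63 for Pde10a, with each lowest value without BWM replicate 1. In RYGB vs. BWM they were -1.74 to 0.19 for Ppp1r1b, -2.14 to 0.65 for Drd1, -2.74 to 0.17 for Adora2a and -1.76 to 0.41 for Pde10a, with each highest value without BWM replicate 1.

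Samples of different groups shared only a replicate number, and 9 of 65 libraries correlated best with one of their own number. The replicate block left 0 members called in every comparison, with 1529 genes called in RYGB vs. sham, 2 in BWM vs. sham, 1 in RYGB vs. BWM and 3039 in batch B vs. A, where Pde10a was 0.74, and it put Pde10a at 0.56 in RYGB vs. sham. Counts of at least 75 per library made counting error small beside the spread between libraries.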
